A study of Homo sapiens with 4 samples.

Results

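The control library of a c-MYC ChIP-seq series was examined peak by peak. Its cells were MIA PaCa-2, a human pancreatic cancer line. ChIP-seq sequences the DNA that an antibody pulls down with chromatin, and a peak is a place where the sequenced tags pile up above the local background. The control was made with non-specific immunoglobulin (IgG) from cells given DMSO for 8 h, and its deposited list holds 2966 peaks. All 2966 were taken as members, out of 28327 peaks in the 4 lists of the series. The other lists come from c-MYC antibody libraries of the same line after 8 h in DMSO (9552 peaks), 100 nM of the inhibitor AMG510 (10378 peaks) or 10 nM of trametinib, which blocks MEK (5431 peaks). No allele or transgene is named for any group, each group is 1 library, and the line is 1 tumour's descendants in culture. No difference below has a replicate check, and intervals are 95% intervals that cover counting error only.

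A non-specific IgG binds no chosen protein, so DNA recovered with it reflects how well chromatin breaks open, dissolves and sticks to beads, together with how reads map. Regions present in many copies, such as satellites, ribosomal DNA and mitochondrial DNA, are known to gather reads in any ChIP library, because the reference often holds fewer copies than the cell does. Peak callers set the tags at a site against a background, and in MACS2 that background never falls under the genome-wide rate of the library.

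The IgG peaks rested on few tags. About 22700000 tags entered calling, and the genome-wide background was 84.2 tags per 10 kb. The median pileup, the number of tags stacked at the summit, was 10, with 7 as the lowest and 286 as the highest. The median fold enrichment, the deposited ratio of pileup to background, was 4.55 and the highest was 33.5. Of the 2966 peaks, 821 had a fold above 5. The c-MYC libraries had 24000000 to 24800000 tags.

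Most IgG peaks were found in the IgG list alone. Of 2966 peaks, 2711 (91.4%, 90.3 to 92.4) overlapped no c-MYC peak by even 1 bp. A further 67 were overlapped by a peak of 1 c-MYC list, 48 by peaks of 2 lists and 140 (4.72%, 4.01 to 5.54) by peaks of all 3. Windows mostly of 24-mers that the reference holds more than once made up 111 of these 140 recurrent peaks (79.3%, 71.8 to 85.2) and 565 of the 2711 peaks of the IgG list alone (20.8%, 19.4 to 22.4). The sequences below are 201 bases of GRCh38, plus strand, centred on the summit. The first 3 are among the 10 IgG peaks of largest fold, the fourth is the peak of largest fold in the densest bin of the genome, and the last is a single-copy window among the 10 strongest peaks of the IgG list alone. Of those 10, others were mostly of repeated 24-mers, such as a peak on chromosome 1 at fold 7.26 with 99.4%. In the fourth, capitals mark GGAAT or its reverse complement ATTCC, the unit of a human satellite. In the others, capitals mark bases inside a 24-mer that the reference holds more than once, and lower case marks bases found once.

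IgG peak in FAM230C, fold 33.5, window chr13:18211976-18212176: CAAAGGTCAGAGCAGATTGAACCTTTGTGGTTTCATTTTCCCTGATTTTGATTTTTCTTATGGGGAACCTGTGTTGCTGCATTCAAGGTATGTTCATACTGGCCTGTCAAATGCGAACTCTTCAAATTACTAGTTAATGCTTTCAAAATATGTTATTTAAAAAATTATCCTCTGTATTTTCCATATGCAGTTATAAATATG
IgG peak on an unplaced contig, fold 24.8, window chrUn_GL000220v1:142817-143017: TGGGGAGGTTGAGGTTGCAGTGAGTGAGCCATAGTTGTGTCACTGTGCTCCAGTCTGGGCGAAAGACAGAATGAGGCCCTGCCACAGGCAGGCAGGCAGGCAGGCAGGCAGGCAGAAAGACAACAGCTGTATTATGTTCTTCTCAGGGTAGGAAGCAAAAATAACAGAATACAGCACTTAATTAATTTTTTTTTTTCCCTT
IgG peak in DUX4L26, fold 19.3, window chr3:75669115-75669315: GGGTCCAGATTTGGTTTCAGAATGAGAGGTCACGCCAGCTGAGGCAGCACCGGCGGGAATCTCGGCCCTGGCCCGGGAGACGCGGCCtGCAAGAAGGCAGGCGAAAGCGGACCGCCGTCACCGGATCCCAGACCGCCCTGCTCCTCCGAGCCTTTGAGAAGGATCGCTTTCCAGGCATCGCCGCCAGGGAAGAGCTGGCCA
IgG peak in satellite of chromosome 4, fold 14.1, window chr4:49120932-49121132: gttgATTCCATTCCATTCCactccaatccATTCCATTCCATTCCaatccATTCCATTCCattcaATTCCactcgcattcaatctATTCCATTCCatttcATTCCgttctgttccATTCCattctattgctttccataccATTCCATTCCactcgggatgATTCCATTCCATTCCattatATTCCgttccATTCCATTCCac
IgG peak in an intron of PKHD1, fold 7.26, window chr6:51980280-51980480: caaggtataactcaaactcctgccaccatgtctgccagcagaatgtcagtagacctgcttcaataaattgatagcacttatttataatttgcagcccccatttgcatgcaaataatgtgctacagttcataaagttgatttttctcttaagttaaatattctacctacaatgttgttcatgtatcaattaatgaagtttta

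The FAM230C window is capital throughout, its 24-mers having a median of 12 copies in the reference. FAM230C is a long non-coding RNA gene near the centromere of chromosome 13. Its peak, chr13:18211923-18212208, held 142 tags in IgG, 157 in c-MYC of DMSO cells, 153 with AMG510 and 164 with trametinib. The folds were 33.5, 31.3, 31.8 and 33.7, so the 4 libraries gave nearly the same value. DUX4L26 is a pseudogene copy of the DUX4 homeobox gene, 4885 bases from the transcription start site (TSS) of FRG2C. Its window has a median of 24 copies, and its folds were 19.3 in IgG and 17.3, 19.7 and 16.9 in c-MYC of DMSO, AMG510 and trametinib cells. The contig window had folds of 24.8, 21.1, 25.6 and 23.6 in the same order. Folds were further apart in others of the 10 largest. A peak on chr22_KI270733v1_random had 20.35 in IgG and 10.98, 10.35 and 11.61 in c-MYC. Another, on chrUn_GL000214v1, had 19.05 in IgG and 10.1, 13.25 and 10.01 in c-MYC. The satellite window holds 21 matches to GGAAT or ATTCC. The PKHD1 window, in an intron of a gene for a cilium protein of the kidney, has no repeated 24-mer. It held 15 tags in IgG and was in none of the c-MYC lists.

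All 10 of the largest-fold IgG peaks were recurrent, and 8 of those 10 lay on unplaced or unlocalized contigs rather than on chromosomes. A contig is a stretch of assembled sequence with no fixed place in the genome. The whole list placed 2806 peaks (94.6%) on chromosomes, 153 (5.16%, 4.42 to 6.01) on 54 contigs and 7 on mitochondrial DNA. Per Mb of sequence, gaps included, that is 13.4 IgG peaks on contigs and 0.909 on chromosomes. The c-MYC lists had 15.4 (DMSO), 18.5 (AMG510) and 14.2 (trametinib) peaks per Mb on contigs, against 3.03, 3.29 and 1.70 on chromosomes. Contig density thus differed far less between IgG and the c-MYC antibody than chromosomal density did.

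The contig with the most IgG peaks was chr22_KI270733v1_random, with 16, of which 13 were recurrent. It had 14 peaks in DMSO c-MYC, 16 in AMG510 and 15 in trametinib. In 2 of its IgG windows over 50% of the 24-mers occur in the ribosomal RNA transcription unit RNA45SN2, which RefSeq places at chr21:8205988-8219302. None of the 2806 chromosomal windows passed that share. The contig chrUn_KI270438v1 followed with 11 IgG peaks, 8 of them recurrent.

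On mitochondrial DNA the 7 IgG peaks had the deepest pileups of the list, from 270 to 286 tags, at folds of only 1.34 to 2.42. Their background held 8163 to 14260 tags per 10 kb. The widest covered chrM:13046-16516, which includes the control region and MT-CYB, and had a fold of 1.92 in IgG and of 2.2 (DMSO), 2.29 (AMG510) and 2.09 (trametinib) in c-MYC. The strongest, chrM:58-1064, at the other edge of the control region, had 2.42, 2.76, 2.93 and 2.64.

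A peak on the chromosomes was far less often recurrent. Any c-MYC list overlapped 133 of 2806 chromosomal IgG peaks (4.74%, 4.01 to 5.59) and 116 of 153 contig peaks (75.8%, 68.5 to 81.9). By list, the chromosomal shares were 3.42% for DMSO, 3.56% for AMG510 and 2.96% for trametinib. For comparison, 29373 windows of 201 bp placed every 100 kb along the chromosomes met a DMSO peak in 0.112%, an AMG510 peak in 0.119% and a trametinib peak in 0.0613%. Chromosomal IgG peaks were thus shared above this grid, and the sharing sat mainly in repeated sequence. Among 627 chromosomal peaks whose window was mostly of repeated 24-mers (over 50%), 15% (12.4 to 18.0) met a c-MYC peak, against 1.79% (1.31 to 2.44) of the other 2179. It also sat at the top of the fold scale. With chromosomal IgG peaks split by fold into 10 classes, 76 of the 281 in the highest class (27%) met a c-MYC peak, against 3 to 10 in each of the other classes.

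The more c-MYC lists an IgG peak was found in, the more repeated its sequence was. On the chromosomes, windows mostly of repeated 24-mers made up 19.9% (18.5 to 21.5) of the 2673 IgG peaks in no c-MYC list, 51.2% of the 43 in 1 list, 67.6% of the 34 in 2 lists and 87.5% (76.4 to 93.8) of the 56 in all 3. The grid had 21.6%, so the peaks of the IgG list alone stood close to the genome at large. Median folds in the same order were 4.54, 4.84, 5.75 and 7.86, and median pileups 10, 12, 14.5 and 26.5 tags. At least 5 copies of GGAAT or ATTCC were present in 18 of the 56 recurrent windows (32.1%, 21.4 to 45.2), in 3 of the 2673 peaks of the IgG list alone (0.112%) and in 0.106% of grid windows.

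**Figure D1:**
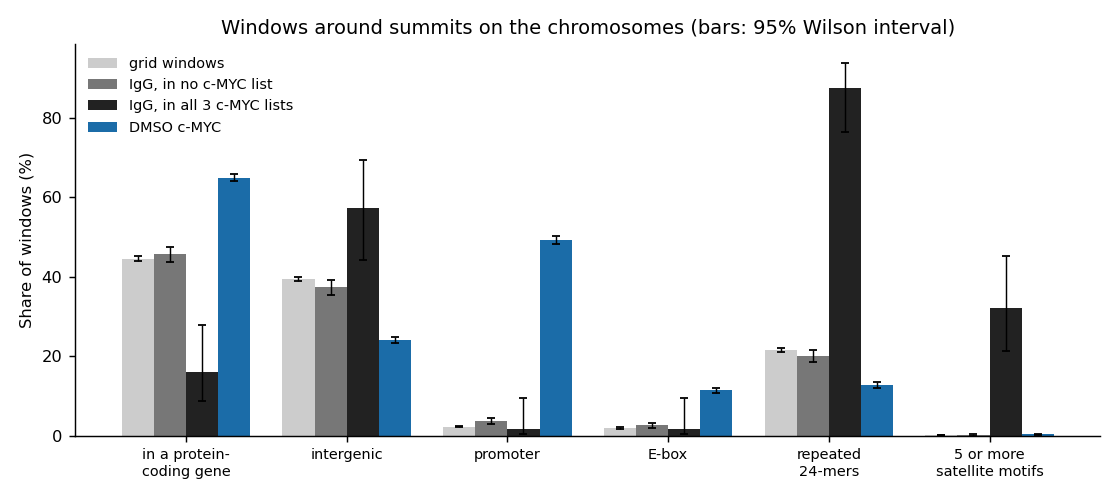
Share of 201 bp windows on the chromosomes with each feature, in percent, for grid windows, IgG peaks in no c-MYC list, IgG peaks in all 3 c-MYC lists and DMSO c-MYC peaks; error bars are 95% Wilson intervals. IgG peaks in no c-MYC list stay within a few percentage points of the grid in each feature. Their promoter share, 3.59% (2.95 to 4.37), is above the 2.30% (2.14 to 2.48) of the grid. Of the peaks in all 3 lists 87.5% are mostly of repeated 24-mers, and 49.3% of DMSO c-MYC peaks are at promoters.

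Recurrent peaks had like folds in all 4 libraries. Over the 140, the median fold was 7.63 in IgG, and in c-MYC 7.30 with DMSO, 7.62 with AMG510 and 7.60 with trametinib. The median log2 ratio of c-MYC to IgG fold was -0.08 in DMSO (SD over peaks 0.33), -0.04 in AMG510 (SD 0.36) and -0.06 in trametinib (SD 0.34). In DMSO and AMG510 all 140 peaks lay within a 2-fold range of their IgG value, and in trametinib 139 did. The rank correlation of IgG and c-MYC fold over these 140 peaks was 0.88, 0.86 and 0.87, as a description of peaks that share their libraries. These peaks are in the comparison because every list called them, which favours like folds.

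**Figure D2:**
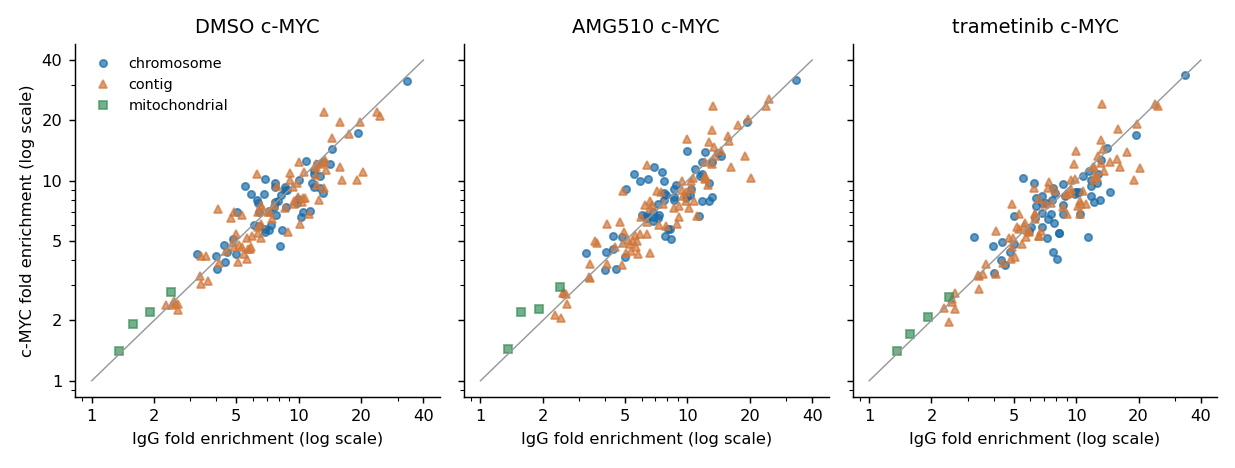
Fold enrichment in each c-MYC list against fold enrichment in the IgG list for the 140 IgG peaks found in all 3 c-MYC lists, both on log scales; circles are chromosomal, triangles contig and squares mitochondrial peaks, and the line marks equal folds. Points follow the line from about 1.36 to 33.5, with median log2 ratios of -0.08, -0.04 and -0.06.

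The 56 recurrent peaks on chromosomes gathered at a few places. Chromosome 4 held 12, chromosome 5 held 7, and chromosomes 1 and 13 held 5 each. The 12 on chromosome 4 all lay in satellite between 49092671 and 49154598, beside the centromere. A pair of clusters on chromosome 5 lay at pseudogenes of GUSB, the gene of a lysosomal glucuronidase: 8 IgG peaks at chr5:34180274-34194096, 4 of them recurrent, around GUSBP18, and 3 at chr5:21479326-21485943, 1 of them recurrent, in GUSBP1. Beyond that cluster GUSBP1 held a stronger recurrent peak, chr5:21496180-21496425. Its folds were 13.2 in IgG and 12.4, 12.4 and 12.7 in c-MYC of DMSO, AMG510 and trametinib cells. Only 7 of the 56 had a window that was not mostly of repeated 24-mers. Of these 7, the largest folds were 13.1 in KIF28P, a pseudogene (chr1:246817860-246818104), and 12.7 upstream of PTPRN2 (chr7:158595133-158595385, 7428 bases from its TSS). Introns of ATP9B, a phospholipid flippase (fold 7.21), OR2T1, an olfactory receptor (7.57), and LPA, apolipoprotein(a) (5.90), held 3 more.

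The 2673 chromosomal peaks of the IgG list alone lay close to the genome at large in their gene and intergenic shares too. Introns of protein-coding genes held 42.9% of them, coding exons 1.38%, lncRNA genes 16.0% and intergenic sequence 37.3%. The grid had 42.1%, 1.2%, 14.9% and 39.4%. All chromosomal IgG peaks together had 44.6% (42.8 to 46.5) in protein-coding genes, against 44.6% of grid windows and 64.9% of DMSO c-MYC peaks. Median GC content around the summit was 42.8% in IgG and 39.8% in the grid, and 62.2% in DMSO, 50.2% in AMG510 and 53.7% in trametinib c-MYC. The E-box CACGTG, the motif that MYC binds, which reads alike on both strands, was in 2.60% (2.07 to 3.26) of IgG windows and 1.92% of grid windows. It was in 11.5% of DMSO c-MYC windows.

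Promoters, here within 1 kb of a protein-coding TSS, held 109 chromosomal IgG summits (3.88%, 3.23 to 4.67), against 2.30% of grid windows and 49.3% of DMSO c-MYC peaks. A c-MYC peak met 13 of these 109 (11.9%, 7.1 to 19.3), against 120 of the other 2697 chromosomal IgG peaks (4.45%, 3.73 to 5.29). Among the peaks of the IgG list alone the promoter share was 3.59% (2.95 to 4.37). The largest promoter fold was 11.8 at SNX16, a sorting nexin of endosomes, where 80.1% of the window is tandem repeat, and all 3 c-MYC lists called it too, at folds of 10.8 in DMSO, 12.4 in AMG510 and 9.36 in trametinib. PGK1, the glycolytic phosphoglycerate kinase, came next with a fold of 9.29 and 29 tags at chrX:78103835-78104365. Its window has no repeated 24-mer, and the peak was also called in DMSO (fold 4.84) and AMG510 (8.20) but not in trametinib. KDM2A, a histone demethylase, had a fold of 6.80 and ADAP1, an adaptor of small GTPase signalling, 6.39. STARD13, a regulator of small GTPases, and TNKS1BP1, a tankyrase partner, had 5.90 each. Lower folds were found at GEMIN4, a factor of spliceosome assembly (5.6), TRPM4, a cation channel (5.55), and KDM2B, a relative of KDM2A (5.44). Apart from SNX16, PGK1 and ADAP1, which DMSO c-MYC shared at 6.68, none of these genes had its IgG peak in a c-MYC list.

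Over all 20033 protein-coding genes, 110 had an IgG promoter peak and 1150 an IgG summit in the gene body, against which the counts of small families are to be read. None of 86 ribosomal protein genes, a classic set of MYC targets, had an IgG summit in its body or promoter, while 70 had a promoter peak in DMSO c-MYC, 71 in AMG510 and 63 in trametinib. Histone genes had 0 IgG summits in 88 gene bodies and 1 gene with a promoter peak, against 15, 18 and 14 genes with a c-MYC promoter peak. Keratin (55 genes), HLA (19) and clustered protocadherin genes (53) had 0 IgG summits. Ribosomal protein genes cover 0.996 Mb, keratin genes 0.535 Mb, histone genes 0.289 Mb and HLA genes 0.191 Mb. With so little sequence a count of 0 is weak beside the rate over all genes. The bodies of clustered protocadherin genes add up to 5.11 Mb. Where genes overlap, a stretch may count more than once in such a sum, so the sequence they cover can be far smaller. Their 0 is therefore not read as low either. Zinc finger genes held 24 IgG summits in 20 of 515 genes, or 1.10 per Mb of gene body, against 0.947 per Mb over all protein-coding genes. Olfactory receptor genes held 5 in 416, or 1.81 per Mb of 2.77 Mb. Of 521 genes and pseudogenes of 5S ribosomal RNA, 1 had an IgG peak within 200 bp, and of 1804 of spliceosomal RNA, 2 had. In DMSO, AMG510 and trametinib c-MYC the counts were 1, 3 and 1 for 5S and 12, 18 and 11 for spliceosomal RNA. The share over all genes at 200 bp was not computed, so these counts are not read as few or many.

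IgG summits in genes fell mostly singly and in long genes. Of 20033 protein-coding genes, 1150 held an IgG summit: 1026 held 1, 100 held 2 and 24 held 3 or more. The median gene with a summit was 142 kb long, and the median over all genes was 27.5 kb. Long genes offer more sequence for a summit to fall in. Density over all gene bodies was 0.947 per Mb, against 0.955 over the chromosomes. The lengths and counts here are therefore not read as a trait of IgG peaks. NRXN3, a neuronal adhesion gene of 1698 kb, held 6. CNTNAP2, another neuronal adhesion gene, held 5 in 2305 kb. ZNF385B (420 kb), MACROD2 (2058 kb) and HDAC9, a histone deacetylase gene (916 kb), held 4 each. Per Mb, ZNF385B had 9.53 summits and NRXN3 3.53. TTC34 (165 kb, 18.2 per Mb), WDPCP, DPP10, PTPRK and CDK14 held 3 each, and the strongest peak of TTC34, at fold 7.80, was the only recurrent one among these 10 genes. Further genes were tied with 3. Of the 24 genes with 3 or more, LRRC4C and MBD5 held no c-MYC summit in any list.

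Most IgG peaks lay far from one another, beside a few tight clusters such as those on chromosomes 4 and 5. The median distance to the nearest other IgG summit was 291 kb, 3.35% of chromosomal peaks had one within 10 kb, and 11.2% had none within 1 Mb. At the scale of whole chromosomes the density was far from even. Over 2938 Mb of called bases the density was 0.955 IgG peaks per Mb. It was 1.42 to 1.47 on chromosomes 5, 18, 19, 20 and 21, and 0.245 (0.169 to 0.345) on chromosome 11, 0.331 on chromosome 15, 0.358 on chromosome 4 and 0.413 on chromosome X. Chromosome Y had 1 IgG peak. Chromosomes 5 and 4, with 258 and 68 peaks, are of similar length (181 and 190 Mb called), and their intervals of 1.26 to 1.61 and 0.278 to 0.454 per Mb do not meet.

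**Figure D3:**
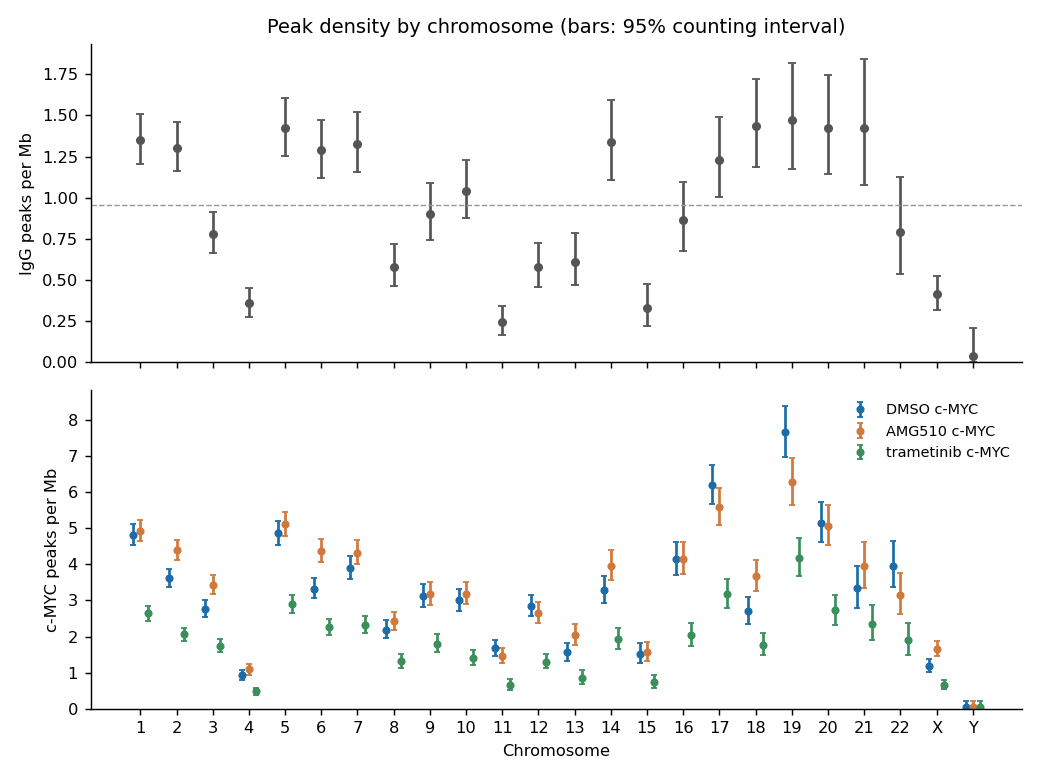
Peaks per Mb of called sequence on each chromosome for IgG (top, dashed line at the genome-wide 0.955) and for the 3 c-MYC lists (bottom), with 95% counting intervals. Chromosomes 4, 11, 15, X and Y are low in all 4 lists, and IgG is highest on chromosome 19, at 1.47 per Mb.

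The c-MYC lists followed the IgG order of chromosomes, most closely away from promoters. Over 23 chromosomes, Y left out, Spearman's rho between IgG and c-MYC density was 0.73 for DMSO, 0.85 for AMG510 and 0.85 for trametinib. For c-MYC peaks outside promoters alone it was 0.91, 0.87 and 0.90. With the density of protein-coding genes, IgG had a rho of 0.05. These points share the 4 libraries, the cell line and the sequence of each chromosome, so the values are descriptions and carry no test.

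By 5 Mb bin the same relation held at finer grain. Of the genome, 591 bins had at least 2.5 Mb called, and they held 2789 IgG peaks with a median of 5 per bin, quartiles of 2 and 7, and a maximum of 16. The variance of the IgG count over bins was 2.42 times its mean, against 9.21 for DMSO, 5.8 for AMG510 and 5.24 for trametinib c-MYC. For uneven counts this ratio rises with the mean count, and the lists differ in size. It therefore does not rank the lists by evenness. Spearman's rho between IgG and c-MYC density over the 591 bins was 0.62 for DMSO, 0.69 for AMG510 and 0.65 for trametinib. Outside promoters it was 0.68, 0.70 and 0.67, and at promoters 0.40, 0.39 and 0.42. With TSS density taken out it was 0.67, 0.71 and 0.67. IgG and TSS density themselves had a rho of 0.16. Ranks within each chromosome remove the differences between chromosomes. So ranked, rho was 0.37, 0.40 and 0.36 for all c-MYC peaks and 0.35, 0.38 and 0.32 outside promoters. Within chromosomes the peaks outside promoters thus followed IgG no more closely than all peaks did. Promoter peaks alone were not ranked within chromosomes, so the contrast with them is not known there. Among themselves the c-MYC lists had 0.85 to 0.87.

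Bins that held no IgG peak were poor in c-MYC peaks as well. In the 70 such bins the c-MYC density was 0.829 per Mb (0.736 to 0.931) in DMSO, 0.992 in AMG510 and 0.407 in trametinib. In the 99 bins with 3 or 4 IgG peaks it was 3.49, 3.55 and 1.82. In the 100 bins with 8 to 10 it was 4.73 (4.54 to 4.92), 4.96 and 2.75, and in the 31 bins with 11 or more it was 4.51, 4.99 and 2.64. The rise was steepest up to 3 or 4 IgG peaks per bin. Away from promoters the density went from 0.241, 0.623 and 0.192 per Mb in bins with no IgG peak to 2.78, 3.79 and 1.80 in those with 11 or more.

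**Figure D4:**
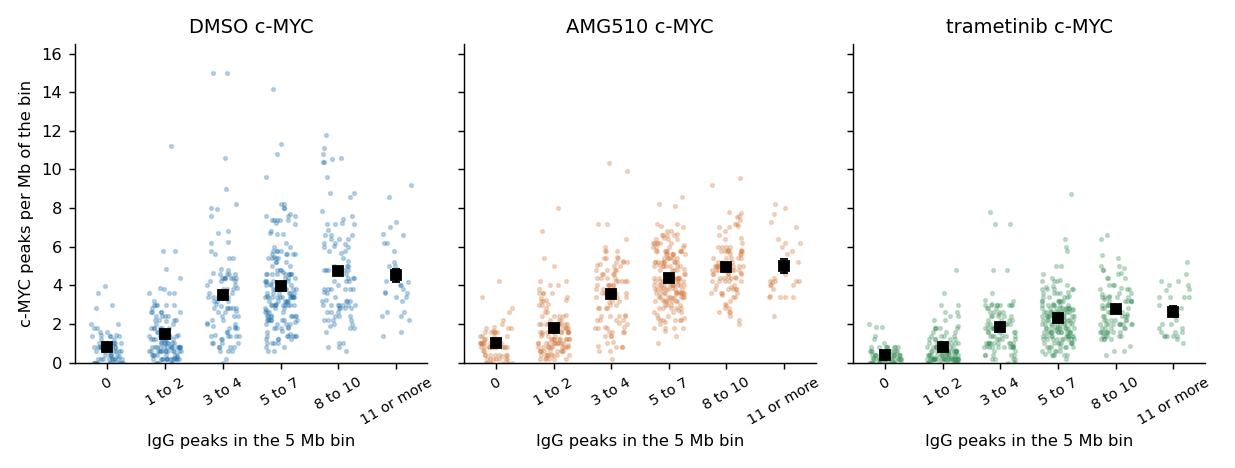
c-MYC peaks per Mb in 5 Mb bins grouped by the number of IgG peaks they hold, in 3 panels by c-MYC list; each dot is a bin, and squares give the pooled density of the group with its 95% counting interval. Pooled DMSO density goes from 0.829 in bins with no IgG peak to 4.73 in bins with 8 to 10, and the dots of neighbouring groups overlap widely.

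Promoters took part in this, though less. The share of protein-coding genes with a c-MYC promoter peak was 14.5% (12.8 to 16.3) in DMSO, 9.29% in AMG510 and 6.02% in trametinib among 1561 genes in bins with no IgG peak. Among 5649 genes in bins with 5 to 7 IgG peaks it was 27.5% (26.3 to 28.6), 17.3% and 14.5%. In bins with 11 or more it was 23.6%, 17.1% and 12%. These are shares of genes rather than counts. TSS density also differed between these bins, at 18.4 per Mb with no IgG peak, 25.9 with 5 to 7 and 28.5 with 11 or more. Its part in the shares was not tested.

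The local background of calling moved with IgG density. For c-MYC peaks outside promoters, the background lay above the genome-wide rate in 26.7% of 363 peaks in bins with no IgG peak, in 48.6% where bins held 1 or 2, in 75.3% at 3 or 4, in 80.4% at 5 to 7, in 82.9% at 8 to 10 and in 85.2% at 11 or more. This background is the number of tags of the same c-MYC library in the 10 kb around the summit, so it was read from libraries other than IgG. Its part in the peak counts was not tested, and DNA copy number was not measured in the files used here.

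In 53 bins, called IgG-dense, IgG reached at least 2 times its genome-wide density. They held 587 IgG peaks (21% of those in bins, 19.6 to 22.6) on 8.82% of the called sequence. The c-MYC density there was 1.62 times (1.53 to 1.72) that of the other bins in DMSO, 1.55 times (1.46 to 1.64) in AMG510 and 1.70 times (1.57 to 1.84) in trametinib. TSS density was 1.25 times as high there. Of the 53, 14 also had DMSO c-MYC at 2 times or more its own genome-wide density, against 11% of all 591 bins, while 11 did in AMG510, against 4.91%, and 16 in trametinib, against 10.8%. As shares of the 53 these are 26.4%, 20.8% and 30.2%. None of the 70 bins without an IgG peak reached that mark in any c-MYC list.

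The densest bin was chromosome 4 from 45 to 50 Mb, with 16 IgG peaks, or 3.33 per Mb, on a chromosome otherwise poor in them. Of the 16, 14 had satellite windows and 12 were recurrent. A single gene, FRYL, a relative of the furry scaffold protein, held 1. The bin had 20 peaks in DMSO c-MYC, 20 in AMG510 and 18 in trametinib. Chromosome 5 from 30 to 35 Mb also had 16, with 9 in windows mostly of repeated 24-mers and 2 in PDZD2, and c-MYC counts of 33, 41 and 20. The other 8 of the 10 densest bins held 1 recurrent peak in all, and their IgG peaks spread over 1438 to 4861 kb. They were chromosome 3 from 195 Mb to its end (10 peaks on a shorter bin, in PAK2, a kinase of the cytoskeleton, and other genes), chromosome 1 from 15 to 20 Mb (14, with 2 each in ARHGEF10L, a guanine nucleotide exchange factor, and CROCC, a rootlet protein of cilia), chromosome 6 from 125 to 130 Mb (14, with 3 in the phosphatase gene PTPRK), chromosome 18 from 25 to 30 Mb (14, with 2 in TAF4B, a subunit of the general transcription factor TFIID), and 4 bins of 13. Those 4 were chromosome 1 from 185 to 190 Mb (2 in HMCN1, a matrix protein), chromosome 5 from 60 to 65 Mb (1 each in ELOVL7, PDE4D, RNF180 and ZSWIM6), chromosome 7 from 135 to 140 Mb (2 in DGKI, a diacylglycerol kinase) and chromosome 19 from 50 to 55 Mb (1 each in CACNG8, KIR2DS4, MYH14 and NLRP2, among others). With 13 peaks in 5 Mb, a density of 2.60 per Mb has an interval of 1.38 to 4.45, so the order of these bins is not resolved.

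Along 6 chromosomes, picked after the values were seen, the IgG density differed between long segments. The edges were set after the values were seen, so the contrasts describe IgG and test nothing there, while the c-MYC values were not used to set them. On chromosome 12, IgG had 54 peaks in the first 35 Mb, or 1.55 per Mb (1.16 to 2.02), and 23 from 35 Mb on, or 0.234 (0.149 to 0.351). DMSO c-MYC had 5.98 and 1.73 per Mb, AMG510 5.70 and 1.57 and trametinib 3.41 and 0.560 in the same segments, although TSS density was close, at 36.0 and 33.5 per Mb. Outside promoters, the background of c-MYC peaks was above the genome-wide rate in 95.5% (92.9 to 97.2) of 379 peaks in the first segment and in 23.1% (16.9 to 30.6) of 143 in the second.

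On chromosome 8, the stretch from 20 to 65 Mb had 0.980 IgG peaks per Mb and that from 65 to 125 Mb had 0.217, a ratio of 4.52 (2.39 to 9.15). The c-MYC ratios of DMSO, AMG510 and trametinib were 5.57, 3.83 and 6.41, and the share of c-MYC peaks outside promoters with raised background was 81.3% and 8.33%. The flanks of chromosome 8 were left out of this contrast. Bins before 20 Mb held 0, 2, 2 and 1 IgG peaks, and those after 125 Mb held 5, 2, 6 and 8. Its density thus did not change in a single step. On chromosome 9, IgG had 1.36 per Mb from 70 Mb on and 0.225 in the first 40 Mb, a ratio of 6.05, with c-MYC ratios of 4.30, 4.10 and 6.44. On chromosome X the first 50 Mb had 0.953 and the rest 0.161, a ratio of 5.92, with 3.54, 3.53 and 4.54 in c-MYC.

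Chromosomes 3 and 13 had smaller steps. From 110 Mb on, chromosome 3 had 1.2 IgG peaks per Mb against 0.446 before it, a ratio of 2.69 (1.9 to 3.86), with 2.62, 2.54 and 3.46 in c-MYC. Chromosome 13 had 1.03 from 15 to 60 Mb and 0.265 from 65 Mb on, a ratio of 3.88, with 3.94, 3.10 and 4.29 in c-MYC. In all 6 of these picked chromosomes and all 3 c-MYC lists the denser IgG segment was the denser c-MYC segment, with intervals of the ratio above 1. Other chromosomes were not split this way, and chromosome 16 followed less closely at its start. Its first 5 Mb bin held 1 IgG peak but 56 (DMSO), 40 (AMG510) and 24 (trametinib) c-MYC peaks. The next bins held 0, 1, 0 and 2 IgG peaks and 5, 7, 6 and 15 in DMSO c-MYC.

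**Figure D5:**
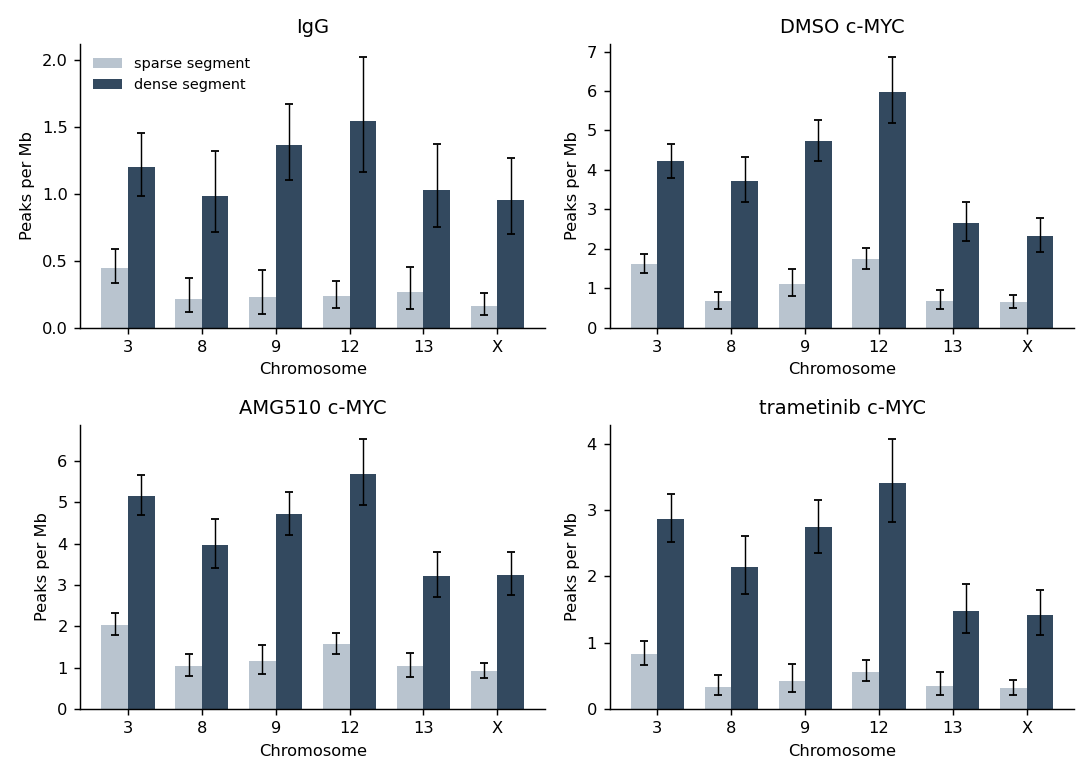
Peaks per Mb in the sparse and the dense segment of chromosomes 3, 8, 9, 12, 13 and X, in 4 panels by list; error bars are 95% counting intervals and each axis starts at 0. The dense segment is higher in every chromosome and list, for IgG on chromosome 12 at 1.55 against 0.234 per Mb.

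The share of genes with a c-MYC promoter peak was higher in the dense segment for all 6 chromosomes in DMSO and trametinib. In AMG510 chromosome 13 went the other way, at 13.4% in the sparse and 12.6% in the dense segment, and the other 5 did not. In the sparse segment of chromosome 8, 13.7% (9.90 to 18.8) of 233 protein-coding genes had a DMSO c-MYC promoter peak, and in the dense one 37.1% (30.9 to 43.9) of 210. On chromosome 9 the shares were 16.7% of 210 genes and 30.6% of 540. Chromosome 12 had 18.5% (15.9 to 21.4) of 747 and 25.1% (20.4 to 30.4) of 291, whose intervals meet.

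Some of the loci followed in pancreatic cancer lay at the extremes of the IgG map. CDKN2A and CDKN2B, which encode inhibitors of cyclin-dependent kinases, and MTAP, a gene of methionine salvage beside them, share the bin from 20 to 25 Mb of chromosome 9. It had 0 peaks in IgG and 0 in each c-MYC list, though it holds 58 protein-coding TSSs. Together with 4 bins of chromosome Y it was 1 of 5 bins without a peak in any list. The stretch around CDKN2A with no peak of any of the 4 lists reached from the end of a peak at 19938455 to the start of another at 26892423, or 6.95 Mb, and no stretch with more called bases and no peak was found outside chromosome Y. This locus is known to be lost in many pancreatic cancers, MIA PaCa-2 among them. Its copy number in the cells used here was not measured, and loss as the source of the empty stretch was not tested.

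The bin of SMAD4, a mediator of TGF-beta signals on chromosome 18, was rich, with 12 IgG peaks and 17, 23 and 7 in DMSO, AMG510 and trametinib c-MYC. CDK6, a cell cycle kinase, lay in a bin with 10 IgG peaks (19, 27 and 12) and MET, a receptor tyrosine kinase, in one with 8 (5, 19 and 11). The bin of ERBB2, another receptor kinase, had 6 (38, 29 and 18), and those of GATA6, a lineage factor, and MYC itself had 5 each. CCND1, a cyclin, and AKT2, a kinase of growth signals, had 3 IgG peaks in their bins and 38 and 34 in DMSO c-MYC, while GATA4 had 2. YAP1, a co-activator of the Hippo pathway, had 0 IgG peaks in its bin and 4, 11 and 0 in c-MYC. Of these 13 loci CDK6 held an IgG summit within the gene, which 1150 of all 20033 protein-coding genes did.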

How the data were processed

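Members, gene lists and comparisons were chosen with earlier results of these data known. Per the labels and the methods of the study, the authors used Trimmomatic 0.39 for trimming and BWA 0.7.17 for alignment to GRCh38, kept mapping quality of 20 or more with SAMtools 1.9, removed duplicates with Picard, called peaks for each library with MACS2 2.2.7.1 and dropped peaks on an exclusion list. Use of IgG as a control in calling is not stated. The deposited lists give a score (10 times the −log10 q-value, cut to a whole number in all but 1 peak each of the DMSO and trametinib c-MYC lists), a fold enrichment (a ratio), a −log10 p-value and a −log10 q-value per peak, all made by the authors.

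From fold and p-value the pileup and background were solved, and matched the deposited p-value within 0.001 (log10) in 100% of peaks. Where it lay above the genome-wide rate, the background was a whole number of tags per 10 kb in 100% of peaks of each list. Counts from the library itself, with no scaled control, give such whole numbers. On that ground the background is described as tags of the same library. Tags in calling were 22700000 in IgG, and were derived from the genome-wide background and a genome size of 2700000000 bp. Groups were taken from the sample titles. Summits were placed in GENCODE version 44 genes and in bins of 5 Mb. Promoter means within 1 kb of the TSS of a protein-coding transcript. A 24-mer counts as repeated when the reference, alternate contigs left out, holds it more than once on either strand. Tandem repeats had units of 1 to 6 bases. This measure stood in for soft-masking, which the reference used here does not carry. Named bins, peaks and genes were the top 10 by density, fold or count, of which 1 promoter peak is not reported here. Shares carry Wilson intervals, densities exact Poisson intervals and ratios exact binomial intervals. No test was made, with 1 library per group. The mates of 1 fragment may both enter as tags, so intervals on tags are too narrow. Python 3.11.15, pandas 2.3.3 and scipy 1.17.1 were used, and the scripts were tested on simulated data. Alternatives changed the bins, the fold or score filter, the overlap and the c-MYC peaks used.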

Additional observations from a re-analysis of the deposited data

How the results depend on the processing

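No paired analysis was possible because there was 1 library per group, and leaving out a library was not possible for the same reason. The share of soft-masked IgG peaks was not run, since the reference carries no soft-masking. Of 94 alternatives over 14 results, 41 stayed near the reported value (within its interval, or within 0.1 for rho), 53 moved and 0 changed direction. Of these, 13 were chosen after seeing the data.

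Values of rho are given for DMSO, AMG510 and trametinib in turn. They fell to 0.48, 0.54 and 0.49 with bins of 2 Mb, to 0.36, 0.41 and 0.32 with peaks above fold 5, to 0.40, 0.39 and 0.42 with promoter peaks and to 0.37, 0.40 and 0.36 with ranks within chromosomes. Density ratios were 1.36, 1.37 and 1.55 with bins of 10 Mb, 2.16, 2.05 and 2.42 with dense set at 3 times, and 1.44, 1.44 and 1.40 at promoters. Outside promoters they were 1.80 in DMSO and 1.91 in trametinib, and above fold 5 the DMSO ratio was 1.49. Both measures draw on few IgG peaks per bin, and smaller bins or fewer peaks leave fewer. With bins of 2 Mb the density ratios stayed near the reported values, at 1.596, 1.575 and 1.676. The cause of the shifts was not tested.

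The share of IgG peaks in dense bins was 47.7% with bins of 2 Mb, 8.93% with 10 Mb, 47.6% above fold 5 and 100% above score 60, where so few peaks remain that any bin with 1 is dense. Overlap with DMSO, AMG510, trametinib and any c-MYC list was 5.26%, 5.76%, 5.09% and 7.32% at 50% of both peaks. It was 8.70%, 8.77%, 7.99% and 11.5% within 1 kb, 17.1%, 18.3%, 16.1% and 21.1% above fold 5, and 3.42%, 3.56%, 2.96% and 4.74% on chromosomes. Above fold 5, above score 60 and without overlap, the share in protein-coding genes (42.2% of all peaks) was 38.0%, 12.2% and 45.0%, that outside chromosomes (5.39%) was 11.8%, 46.1% and 1.40%, and that of repeated 24-mers (25.3%) was 37.1%, 78.9% and 20.8%.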

Other observations

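The filter on the exclusion list left gaps in the running numbers of the IgG peaks, which show where peaks had been called and removed. Of 199 missing IgG numbers, 188 fell between peaks of the same chromosome: 35 on chromosome 1, 33 on chromosome 10, 27 on chromosome 16 and 20 on chromosome 20. A single gap held 33 of them. The c-MYC lists had gaps of 252 (DMSO), 354 (AMG510) and 268 (trametinib) within chromosomes, with chromosome 1 the highest in each, at 43, 77 and 58. Chromosome 10 had 34, 40 and 32. No number was missing between peaks of the same contig in any list. A further 11 IgG numbers were missing between peaks of different chromosomes or contigs, and where those peaks lay is not known.

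Seen from the c-MYC side, few peaks carried an IgG peak. An IgG peak met 9 of 4617 promoter peaks in DMSO c-MYC (0.195%), 4 of 2806 in AMG510 (0.143%) and 4 of 2124 in trametinib (0.188%). On contigs the shares were 51.1% of 176 peaks, 47.2% of 212 and 58.3% of 163.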
